A study of Mus musculus with 6 samples.

Results

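Igf2, H19, Meg3 and Dlk1 form a pair of imprinted gene pairs, and their transcripts were followed in mouse embryonic stem cells that lack 3 linker histones. All probe sets whose platform annotation lists any of the 4 genes, by current or older symbol, were taken. The 4 genes have 6 of the 12488 probe sets on the array: 2 of Igf2, 2 of Meg3, 1 of Dlk1, and 1 listed with H19 together with the microRNA gene Mir675. The genes were chosen because earlier results of the same arrays had shown large differences of Meg3, H19 and Igf2 between null and wild-type cells, and Dlk1 was taken as the partner of Meg3. Their levels against wild type are therefore given as a description, with no test. Tests are given for the 2 null lines against each other and for the 2 experiments against each other, which did not enter that choice.

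The null cells carry inactivated genes of H1c, H1d and H1e (now H1f2, H1f3 and H1f4), linker histones, which sit on the outside of nucleosomes and help to pack them. There were 2 triple-null lines and a wild-type group, each with 2 arrays, named experiment 1 and experiment 2 in the labels, and all RNA came from exponentially growing cells. Strain, sex, passage, culture medium and feeder cells are not given in the sources used here. The labels also leave unstated if a line's arrays stem from independent cultures, and the p-values then reflect array-to-array spread alone, possibly technical. Because the labels name a single wild-type group, the loss of the histones and any difference between that culture and other wild-type cultures cannot be told apart.

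Imprinted genes are expressed mainly from the copy inherited from a given parent, and DNA methylation laid down in the germ cells marks which copy that is. At the first pair, on mouse chromosome 7, H19 gives a noncoding RNA from the maternal copy and Igf2 gives a fetal growth factor from the paternal copy. On the maternal copy the insulator protein CTCF binds an unmethylated control region between the genes and keeps shared enhancers from Igf2, whereas on the paternal copy that region is methylated, H19 is silent and Igf2 is active. At the second pair, on chromosome 12, Meg3 (formerly Gtl2) gives a noncoding RNA from the maternal copy and Dlk1 gives a membrane protein related to Notch ligands from the paternal copy, again under a control region that is methylated on the paternal chromosome. The arrays measure the sum over the parental copies and do not tell them apart.

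Sequences are shown for the microRNA that the H19 probe set is listed with and for the start sites at which CpG dinucleotides, the sites of DNA methylation, could lie. The sequences are from RefSeq, build GRCm38.p6. Mir675 lies within the annotated span of H19, on the minus strand. Its mature forms, at chr7:142577112-142577133 for 5p and chr7:142577078-142577099 for 3p, are given 5′ to 3′ with the seed (bases 2 to 8) in capitals. Their seeds differ, and no other of the 1738 mature microRNAs in the table has either.
mmu-miR-675-5p: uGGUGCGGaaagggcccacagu
mmu-miR-675-3p: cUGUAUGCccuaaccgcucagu

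Promoter windows, 250 bases before to 50 bases after an annotated start, were found for 3 of the 4 genes, 7 windows in all, of which the window with the most CpGs is shown for each gene, 5′ to 3′ on the gene's own strand with CpGs in capitals. They are chr7:142658755-142659054 (minus strand) for Igf2, chr12:109540746-109541045 (plus strand) for Meg3 and chr12:109452573-109452872 (plus strand) for Dlk1.
Igf2: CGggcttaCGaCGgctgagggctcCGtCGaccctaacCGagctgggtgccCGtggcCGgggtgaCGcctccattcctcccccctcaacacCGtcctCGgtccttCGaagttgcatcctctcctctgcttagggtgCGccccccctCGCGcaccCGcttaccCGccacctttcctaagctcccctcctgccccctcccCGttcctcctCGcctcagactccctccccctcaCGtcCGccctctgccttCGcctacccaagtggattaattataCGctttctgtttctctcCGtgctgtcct
Meg3: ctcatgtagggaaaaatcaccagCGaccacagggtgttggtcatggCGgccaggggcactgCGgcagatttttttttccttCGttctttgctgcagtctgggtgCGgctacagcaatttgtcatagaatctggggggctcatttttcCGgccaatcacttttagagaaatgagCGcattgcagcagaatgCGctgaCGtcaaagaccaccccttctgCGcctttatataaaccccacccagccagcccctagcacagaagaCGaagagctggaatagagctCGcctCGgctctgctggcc
Dlk1: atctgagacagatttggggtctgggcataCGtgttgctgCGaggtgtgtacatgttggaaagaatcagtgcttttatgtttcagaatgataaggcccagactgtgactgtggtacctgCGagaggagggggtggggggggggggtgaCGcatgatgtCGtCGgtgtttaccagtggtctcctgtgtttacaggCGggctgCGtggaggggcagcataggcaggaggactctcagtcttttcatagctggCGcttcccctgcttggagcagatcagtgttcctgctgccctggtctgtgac
The Igf2 window holds 24 CpGs, the Meg3 window 13 and the Dlk1 window 9, beside a median of 7 over the 32851 windows of that length. The other Igf2 windows hold 14, 7 and 2, and the other Meg3 window holds 1. The letters CCCTC, the core of the CTCF consensus, were found on either strand in 5 of the 7 windows and in 66% of all windows. The letters TGCCGC, the core bound by the imprint-protecting zinc finger protein ZFP57 when methylated, were found on either strand in 1 window of Igf2, with 14 CpGs, and in the Meg3 window shown, and are present in 11.6% of all windows. These are letters in a window and not measured binding or methylation.

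The arrays had median signals between 34.1 and 39.5 intensity units. Background was taken as the brightest of 19 control probe sets for bacterial and yeast genes, which lay between 9.1 and 17.2 units on the 6 arrays. Of the targeted genes, H1f2 had signals of 11.1, 11.5, 13 and 14.4 on the null arrays, against 70 and 68.2 on the wild-type arrays (log2 change -2.30, limma adjusted p = 0.00119). The probe sets of H1f3 and H1f4 were at or below background on all 6 arrays and check nothing. The 3' to 5' log2 ratio of Gapdh, a measure of RNA integrity, lay between -0.26 and -0.156 on the null arrays and was -0.251 and -0.134 on the wild-type arrays. A log2 change is the difference of means of log2(value + 2), with its standard error (SE) from a limma fit over the 7453 probe sets whose mean signal was at least 20.9, and it understates the change of dim genes.

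H19 and Meg3, the maternally expressed noncoding RNAs, were higher on every null array than on either wild-type array. Igf2 was lower on every null array, and Dlk1, the partner of Meg3, lay a little lower. Of the 6 probe sets, 5 passed the filter on low signals, and in all 5 the null and wild-type arrays did not overlap, with null higher in 3 and lower in 2. Such a lack of overlap was seen in 23% of all probe sets tested, 11% higher and 12% lower, and since these genes were chosen on this difference nothing is read from their count. The smallest two-sided p of an exact permutation test here is 0.0667.

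H19 had signals of 813.3 and 959.3 units on the arrays of null line 1 and 810.9 and 829.1 on those of null line 2, against 106.8 and 122.9 on the wild-type arrays. The lowest null array was thus far above the highest wild-type array. The mean was 853 ± 71.2 units (SD, n = 4) in null cells and 115 ± 11.4 (SD, n = 2) in wild-type cells, 7.43 times as high. The log2 change was 2.87 ± 0.13 (SE), the second largest increase among the 7453 probe sets. The ranks of H19, Igf2 and Meg3 follow from the choice of these genes on this difference, so nothing is read from them. The probe set is listed with both Mir675 and H19, so its signal is that of the transcript that carries the microRNA and not a measure of mature miR-675.

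Igf2, the growth factor gene whose paternal copy shares enhancers with H19, had signals of 596.6 and 722.5 units in null line 1 and 465.1 and 485.4 in null line 2, against 1713.7 and 1762.9 in wild-type cells. All null arrays were below both wild-type arrays, and none approached background. The mean was 567 ± 118 units (SD, n = 4) in null cells and 1740 ± 34.8 (SD, n = 2) in wild-type cells, so null cells had 32.6% of the wild-type signal. The log2 change was -1.63 ± 0.12 (SE), the third largest decrease among the probe sets tested. The other Igf2 probe set, which the annotation ties to the same source transcript, had 2 to 4.2 units on the null arrays and 2.1 and 3.3 on the wild-type arrays. It was at or below background on all 6 arrays and says nothing about the change.

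Meg3 had signals of 195.9 and 152.8 units in null line 1 and 183.1 and 193.6 in null line 2, against 15.4 and 14.2 in wild-type cells, with the first of its probe sets. In wild-type cells the transcript was close to background, and 1 of the 2 wild-type arrays was above it. The mean was 181 ± 19.8 units (SD, n = 4) in null cells and 14.8 ± 0.849 (SD, n = 2) in wild-type cells. The log2 change was 3.44 ± 0.14 (SE), the largest increase among the probe sets tested, but it is set against a wild-type signal near background. With a pseudocount of 16 in place of 2 it was 2.67, below the 2.73 of H19, so the order of these genes depends on the pseudocount. Its other probe set had signals of 140.1 and 125.7 units in null line 1 and 136.1 and 111.3 in null line 2, against 47.7 and 40.2 in wild-type cells. The groups did not overlap here either, and all wild-type arrays were above background. Its log2 change was 1.5 ± 0.14 (SE), with null cells at 2.92 times the wild-type mean. The Meg3 probe sets thus gave the same direction and different sizes of change, and probe sets of different sequence cannot be compared in level.

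Dlk1 had signals of 76.9 and 77.6 units in null line 1 and 71.2 and 77.2 in null line 2, against 84 and 97 in wild-type cells. The null arrays were below both wild-type arrays, by as little as 6.4 units at the nearest pair. The mean was 75.7 ± 3.03 units (SD, n = 4) in null cells and 90.5 ± 9.19 (SD, n = 2) in wild-type cells. The log2 change was -0.25 ± 0.12 (SE), beside a median size of 0.15 over all probe sets tested, and 1264 of the 7453 probe sets had a lower log2 change. In size it was far smaller than the change of its partner Meg3, whereas H19 and Igf2 differed from wild type by 2.87 and -1.63 log2 units. Without wild-type replicate 1 the value was -0.35 and without wild-type replicate 2 it was -0.15, so its size rests on either wild-type array.

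**Figure D1:**
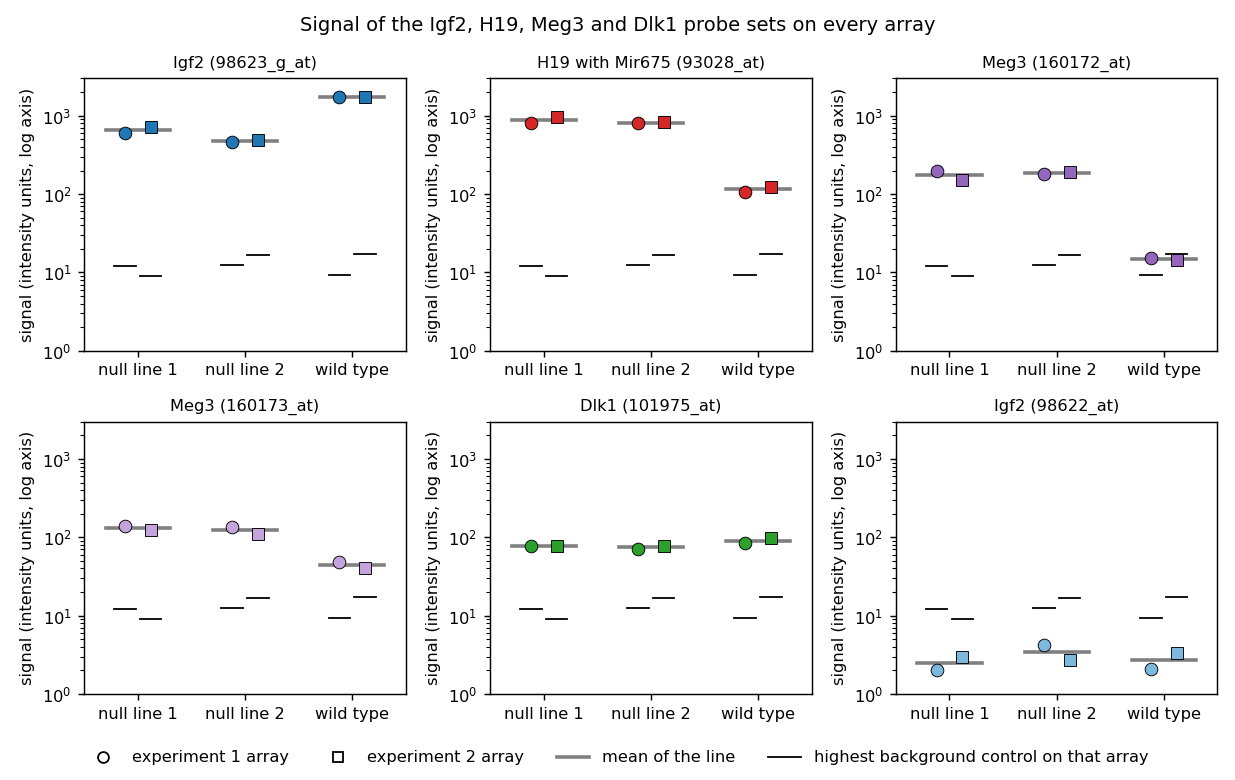
Signal (intensity units, log axis) of the 6 probe sets in null line 1, null line 2 and wild-type cells. Each point is an array, circles are experiment 1 and squares experiment 2, grey lines are means of a line, and black lines mark the highest of 19 background controls on that array. H19 sits between 810.9 and 959.3 on the null arrays, above 106.8 and 122.9 in wild type, and the second Igf2 probe set lies under the black lines throughout.

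Each of the 5 probe sets that passed the filter had the same direction in each null line and in each experiment. That follows from the lack of overlap between null and wild-type arrays and is no further result. The comparisons of the null lines with wild type share the wild-type arrays and are therefore not independent of each other. In null line 1 and null line 2, the log2 changes were 2.92 ± 0.15 and 2.82 ± 0.15 for H19 and -1.40 ± 0.14 and -1.87 ± 0.14 for Igf2 (SE). They were 3.38 ± 0.16 and 3.50 ± 0.16 for Meg3, 1.56 ± 0.16 and 1.45 ± 0.16 for its other probe set, and -0.22 ± 0.13 and -0.28 ± 0.13 for Dlk1. When null arrays were set only against the wild-type array of the same experiment, the log2 differences in experiment 1 and experiment 2 were 2.90 and 2.84 for H19, -1.7 and -1.57 for Igf2, 3.46 and 3.43 for Meg3, and -0.18 and -0.32 for Dlk1. The outermost of the 4 pairwise differences, a null array minus the wild-type array of its experiment, were 2.94 and 2.73 for H19 and 3.59 and 3.26 for Meg3. They were -1.28 and -1.88 for Igf2 and -0.12 and -0.32 for Dlk1.

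**Figure D2:**
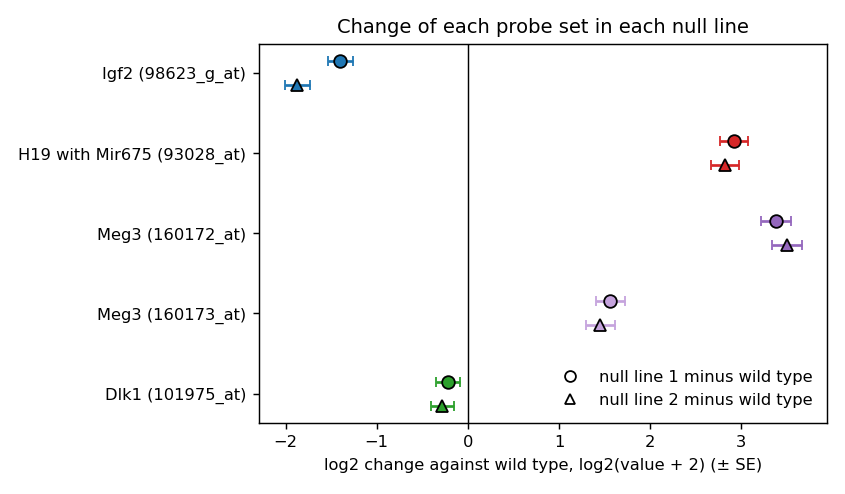
Log2 change against wild type, on the log2(value + 2) scale, of the 5 probe sets that passed the filter. Circles are null line 1 and triangles null line 2, and bars are the SE of the fit. H19 and both Meg3 probe sets lie to the right of 0 in each line and Igf2 to the left, and the symbols of Igf2 stand farthest apart, at -1.40 and -1.87.

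The null lines against each other give a comparison that the choice of these genes did not use. None of the 5 probe sets passed adjusted p 0.05 with limma, beside 0.0268% of all probe sets, and 1 of the 5 had an unadjusted p under 0.05, beside 7.55% of all. That was Igf2, which was higher in null line 1 than in null line 2 by 0.46 ± 0.14 (SE, 95% interval 0.12 to 0.81, unadjusted p = 0.0162, limma adjusted p = 0.627). Its arrays did not overlap between the null lines, as was so for 39.1% of all probe sets. Under the alternatives tried, the adjusted p of this Igf2 difference lay between 0.317 and 0.991 and its size between 0.33 and 0.6.

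For the other genes the arrays of the null lines overlapped. The log2 difference of null line 1 minus null line 2 was 0.11 for H19 (95% interval -0.25 to 0.46, limma adjusted p = 0.869) and -0.12 for Meg3 (-0.51 to 0.26, adjusted p = 0.862). It was 0.11 for the other Meg3 probe set (-0.29 to 0.50, adjusted p = 0.885) and 0.06 for Dlk1 (-0.27 to 0.38, adjusted p = 0.928). These intervals leave room for differences of up to 0.51 log2 units between the lines, which is small beside the changes of H19 and Meg3 against wild type and larger than that of Dlk1. Against that, 95% of all probe sets differed between the lines by less than 0.56.

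**Figure D3:**
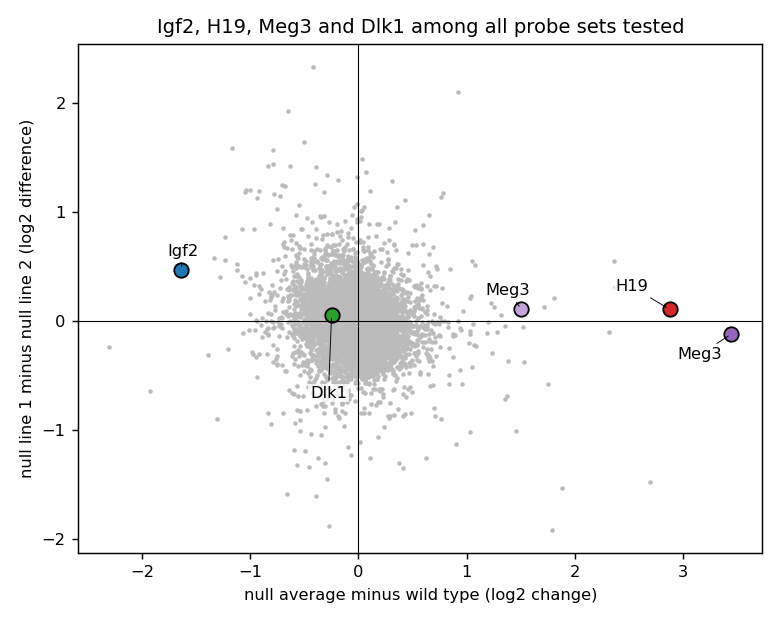
Null average minus wild type (x axis) and null line 1 minus null line 2 (y axis), both log2, for all 7453 probe sets tested (grey). Meg3 (3.44) and H19 (2.87) lie farthest right and close to 0 on the y axis, Igf2 lies at -1.63 and 0.46, and Dlk1 lies within the mass of probe sets.

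Between experiment 2 and experiment 1, none of the 5 probe sets passed with limma, nor did any of all 7453 (0%), and none of the 5 had an unadjusted p under 0.05, beside 6.78% of all. The log2 differences were 0.16 for H19 (95% interval -0.12 to 0.43, adjusted p = 0.836), 0.13 for Igf2 (-0.16 to 0.41, adjusted p = 0.867) and 0.11 for Dlk1 (-0.16 to 0.38, adjusted p = 0.881). They were -0.13 for Meg3 (-0.45 to 0.20, adjusted p = 0.886) and -0.23 for its other probe set (-0.49 to 0.04, adjusted p = 0.78). H19, Igf2 and Dlk1 were higher in experiment 2 in all 3 lines, Meg3 in 1 line, and its other probe set in none. As estimates, each of these differences was smaller in size than the null to wild-type difference of the same probe set. H19, Igf2 and Meg3 were chosen on that difference, so nothing is read from this. For Dlk1 the interval reaches 0.38, which is larger in size than its change of -0.25 against wild type.

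The genes around the pairs were read from lists by position. Of 26 genes listed for the imprinted region around Igf2 and H19 and its flanks, 21 were on the array and 14 were tested. None of the 14 passed in the null average with limma, beside 0.416% of all probe sets. At an unadjusted p under 0.05 there were 3 of 14, beside 12.7% of all, and the median log2 change was -0.07, beside -0.01 over all probe sets. Phlda2, a maternally expressed gene that limits placental growth, measured 405 units in null and 268 in wild-type cells (0.59 ± 0.10, SE, adjusted p = 0.12). Osbpl5, a maternally expressed lipid transfer protein, measured 78.8 units in null and 112 in wild-type cells (-0.50 ± 0.14, SE, adjusted p = 0.236). Cars, a cysteine tRNA ligase, measured 122 units in null and 96.2 in wild-type cells (0.33 ± 0.10, SE, adjusted p = 0.282), and these are the 3 genes with an unadjusted p under 0.05. The lysosomal protease gene Ctsd, which was not among them, measured 597 units in null and 840 in wild-type cells (-0.53 ± 0.23, SE, adjusted p = 0.412). Cdkn1c, a maternally expressed inhibitor of the cell cycle, measured 298 and 301 units (-0.02), and like Phlda2 and Osbpl5 it belongs to the neighbouring imprinted domain. Ins2, the insulin gene next to Igf2, was at or below background on all 6 arrays.

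Of 16 genes listed for the region around Dlk1 and Meg3, 8 were on the array and all 8 were tested. None passed with limma, beside 0.416% of all probe sets. An unadjusted p under 0.05 was found for 2 of 8, beside 12.7% of all, and the median log2 change was 0. Wars, a tryptophan tRNA ligase, measured 437 units in null and 291 in wild-type cells (0.59 ± 0.16, SE, adjusted p = 0.228), and Dync1h1, the heavy chain of cytoplasmic dynein, 218 and 273 (-0.32 ± 0.12, SE, adjusted p = 0.369). Degs2, a sphingolipid desaturase, measured 17 units in null and 31.9 in wild-type cells, with overlapping arrays (-1 ± 0.48, SE, adjusted p = 0.448). Yy1, a zinc finger transcription factor, measured 154 units in null and 170 in wild-type cells (-0.14, adjusted p = 0.635). The imprinted neighbours Rtl1, Rian, Mirg and Dio3 were not analysed here.

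Factors that set, keep or read imprints had 11 of 22 genes tested. None passed with limma, beside 0.416% of all probe sets. An unadjusted p under 0.05 was found for 2 of 11, beside 12.7% of all, and the median log2 change was 0.05. Dppa3, which protects methylation in the early embryo, measured 373 units in null and 229 in wild-type cells (0.69 ± 0.16, SE, adjusted p = 0.187), and the de novo methyltransferase gene Dnmt3a 130 and 92.4 (0.46 ± 0.14, SE, adjusted p = 0.281). Mbd1, a methyl-CpG binding protein, measured 19.3 units in null and 24.3 in wild-type cells (-0.30 ± 0.14, SE, adjusted p = 0.439). Ctcf measured 205 units in null and 175 in wild-type cells (0.22, adjusted p = 0.507), the maintenance methyltransferase gene Dnmt1 468 and 454 (0.04, adjusted p = 0.92), Trim28, a corepressor that ZFP57 recruits, 3300 and 2900 (0.18, adjusted p = 0.529), and Zfp57 151 and 132 (0.02 ± 0.38, SE, adjusted p = 0.99). DNA methylation itself was not measured on these arrays.

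Among receptors, binding proteins and other partners of Igf2, 10 of 20 listed genes were tested. Igfbp3, which binds insulin-like growth factors outside the cell, fell to 191 ± 27 units (SD, n = 4) in null cells, against 374 ± 16 (SD, n = 2) in wild-type cells (log2 change -0.97 ± 0.12, SE, limma adjusted p = 0.0433). It was the single call among the 10, beside 0.416% of all probe sets, and its adjusted p lay between 0.00594 and 0.321 over the alternatives and above 0.05 without any one of the 6 arrays. In all, 5 of the 10 had an unadjusted p under 0.05, beside 12.7% of all probe sets, 9 had negative log2 changes, and the median was -0.37, beside -0.01 over all. This list, like the others, was chosen with earlier results of these data known, so nothing is read from such counts. Igfbp4 measured 61.5 units in null and 111 in wild-type cells (-0.84 ± 0.16, SE, adjusted p = 0.132), the insulin receptor substrate gene Irs2 42 and 97.6 (-1.23 ± 0.32, SE, adjusted p = 0.215), and the processing protease gene Furin 174 and 247 (-0.50 ± 0.12, SE, adjusted p = 0.183). The receptors had smaller differences that did not pass. Igf2r, which clears IGF2 and is itself imprinted, measured 172 units in null and 206 in wild-type cells (-0.28 ± 0.15, SE, adjusted p = 0.493), and Igf1r, which signals for IGF1 and IGF2, 179 and 212 (-0.28 ± 0.27, SE, adjusted p = 0.714).

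Among Notch receptors, ligands and targets, related to the family of Dlk1, 12 of 20 listed genes were tested. None passed with limma, beside 0.416% of all probe sets. At an unadjusted p under 0.05 there was 1 of 12, beside 12.7% of all probe sets, and the median was -0.05. Notch2 measured 33 units in null and 46.2 in wild-type cells (-0.48 ± 0.14, SE, adjusted p = 0.272), and Notch3 176 and 239 (-0.46 ± 0.24, SE, adjusted p = 0.482). Rbpj, the DNA-binding partner of activated Notch, measured 138 units in null and 108 in wild-type cells (0.34, adjusted p = 0.448), the Notch regulator Dtx1 92.9 and 77 (0.25, adjusted p = 0.537), and the Notch target Hes1 104 and 103 (0.00, adjusted p = 0.994). Of 19 genes listed as partners in an imprinted gene network, 16 were tested and none passed with limma, beside 0.416% of all probe sets. An unadjusted p under 0.05 was found for 6 of 16, beside 12.7% of all, and the median was -0.08. Phlda2, given above with the region around Igf2 and H19, is also on this list and among the 6, so the counts share a gene. Plagl1, a paternally expressed zinc finger factor known to regulate Igf2 and H19, measured 24.5 units in null and 60.8 in wild-type cells (-1.28 ± 0.23, SE, adjusted p = 0.121). Nnat, paternally expressed and active in the nervous system, measured 347 and 236 (0.54 ± 0.14, SE, adjusted p = 0.219), and Peg10, a paternally expressed gene of placenta, 213 and 296 (-0.48 ± 0.16, SE, adjusted p = 0.306). No gene of the 6 lists passed with limma in null line 1 or null line 2 taken alone against wild type, beside 0.134% and 0.255% of all probe sets, with 1 to 4 and 1 to 7 genes a list at an unadjusted p under 0.05, beside 9.49% and 14.1% of all. None passed between the null lines or between the experiments either, beside 0.0268% and 0% of all probe sets. There the lists had 0 to 2 and 1 to 3 genes at an unadjusted p under 0.05, beside 7.55% and 6.78% of all.

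**Figure D4:**
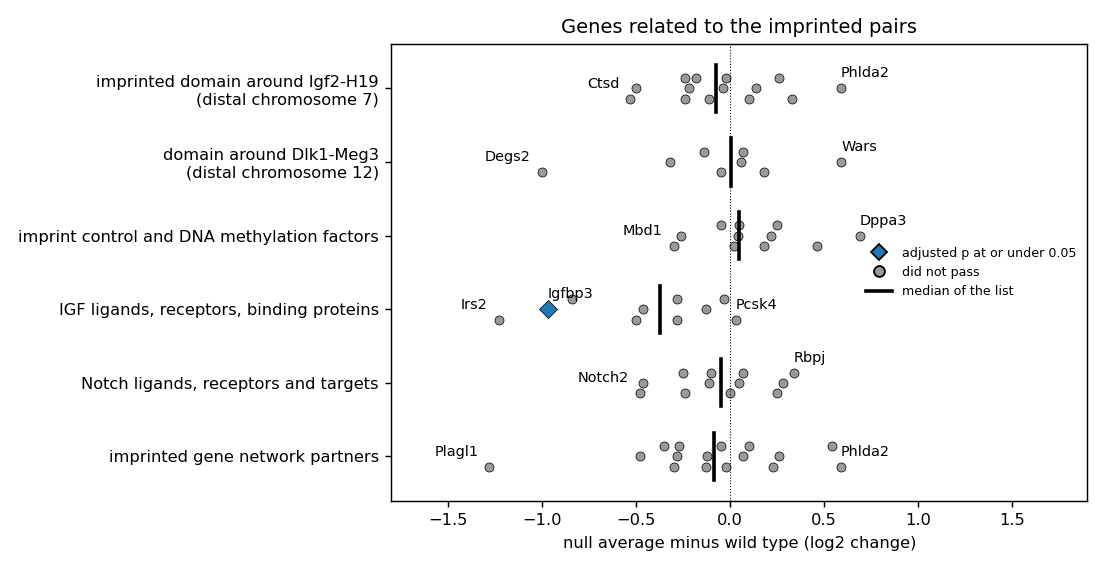
Log2 change of null average minus wild type for the tested genes of 6 lists, with each point a gene by its brightest probe set and the black bar the median of the list. Igfbp3, the blue diamond at -0.97, passed adjusted p 0.05, and no grey gene did.

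Igf2 and H19 are active in differentiating lineages, so marker lists of other cell types are set beside the result. In bulk samples, fewer cells of a type and less RNA per cell cannot be told apart. Markers of pluripotent cells were well above background in all groups, with Pou5f1 at 1670 units in null and 1530 in wild-type cells. Their 12 signals summed to between 8684 and 9609 on the null arrays and to 8221 and 8310 on the wild-type arrays. The brightest, Dppa5a, measured 2790 units in null and 2470 in wild-type cells. Of the 12, 8 had positive log2 changes and 4 negative: Sox2 (-0.04), Nanog (-0.09), Klf4 (-0.23) and Tdgf1 (-0.38). An unadjusted p under 0.05 was found for 4 of 12, beside 12.7% of all probe sets. Only Fbxo15 passed, beside 0.416% of all. It rose (1.05 ± 0.13, SE, limma adjusted p = 0.0465, and between 0.00594 and 0.412 over the alternatives).

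Summed signals of mesoderm, trophoblast and fibroblast markers were lower on every null array than on either wild-type array. For 12 mesoderm markers they lay between 277 and 315 on the null arrays and at 393 and 427 on the wild-type arrays, with 1 of 7 tested genes at a positive log2 change, and Mesp1 and Cdx2 were at background throughout. The largest differences in units were those of Flt1, with 18.6 units in null and 64.8 in wild-type cells, and Hand1, with 89.6 and 119. Hand1 is also on the trophoblast list, and the mesoderm markers T and Mixl1 were not analysed here. For 12 trophoblast markers the sums lay between 2302 and 2701 on the null arrays and at 3799 and 3939 on the wild-type arrays, with 3 of 8 tested genes at a positive log2 change. Most of the difference in sum came from the keratin genes Krt8, with 909 units in null and 1480 in wild-type cells, and Krt18, with 959 and 1670. These lead that list and other simple epithelia express them, and its defining Cdx2 and Elf5 were at background. For 15 fibroblast markers, of which Igfbp4 is also on the list of IGF partners, they lay between 2117 and 2480 on the null arrays and at 2993 and 3018 on the wild-type arrays, with 2 of 9 tested genes at a positive log2 change. Most of that sum came from Tagln, with 1030 units in null and 1320 in wild-type cells, Acta2, with 345 and 561, and Anxa1, with 279 and 429, which contractile and other cells also express. The fibroblast collagen genes Col1a1, with 160 units in null and 158 in wild-type cells, and Col1a2, with 238 and 219, had overlapping arrays. None of the tested genes of these 3 lists passed with limma, beside 0.416% of all probe sets. An unadjusted p under 0.05 was found for 4 of 7, 3 of 8 and 5 of 9, beside 12.7% of all probe sets. These lists too were chosen with earlier results of these data known, so nothing is read from the counts. For 15 extraembryonic endoderm markers the sums lay between 2954 and 3753 on the null arrays and at 3386 and 3671 on the wild-type arrays, which overlap. Most of these sums came from Apoe, with 2010 units in null and 1730 in wild-type cells. Of the 11 tested, 3 had positive and 8 negative log2 changes, and 3 had an unadjusted p under 0.05, beside 12.7% of all probe sets. Only Col4a2, a basement membrane collagen, passed, beside 0.416% of all. It fell (-0.84 ± 0.10, SE, limma adjusted p = 0.0433, and between 0.00644 and 0.387 over the alternatives), and Foxa2 and Hnf4a were at background. No marker of these lists had a signal of 0 on any array. The part of such cells in the lower Igf2 was not tested. The calls of Fbxo15 and Col4a2, like that of Igfbp3, were lost without any 1 of the 6 arrays.

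The Y-linked translation factor gene Eif2s3y had signals of 76, 71.5, 50.5 and 49 units on the null arrays and 11.5 and 9 on the wild-type arrays. Xist was at or below background on all 6 arrays, and so was the Y-linked Kdm5d. The Y-linked Uty had 13.3, 17.5, 14.4 and 2.3 units on the null arrays and 5.2 and 14.4 on the wild-type arrays, above background on 3 of 4 null arrays and on neither wild-type array, with overlapping groups. Whether sex chromosome content bears on the imprinted genes was not tested.

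Genes with the pattern most like each gene were sought among 322 probe sets of a named gene whose log2 SD over the 6 arrays was at least 0.5. The likeness is Pearson's r over 6 arrays that fall into null and wild type, so it mostly reflects that split, shared by all genes named. H19 was most like H1f5, another linker histone gene (r = 0.996), the X-linked homeobox gene Rhox5 (0.993) and the protease gene Cela1 (0.978), and most opposite to H1f2 (-0.995), Emp1 (-0.974) and Igfbp3 (-0.965). Meg3 was most like the phosphofructokinase gene Pfkp (0.991), the F-box gene Fbxo15 (0.991) and Rhox5 (0.988), and most opposite to H1f2 (-0.99), Emp1 (-0.975) and Pmp22 (-0.953). Igf2 was most like the epithelial membrane protein gene Emp1 (0.979), Tapbp (0.973), which loads peptides on MHC class I, and the TNF family ligand gene Tnfsf9 (0.964). It was most opposite to Cyct (-0.982), Pfkp (-0.98) and Sgip1 (-0.98). Dlk1, whose own log2 SD was 0.15, was most like Plagl1 (0.914), Pmp22 (0.912) and Vnn1 (0.881), and most opposite to 6330403K07Rik (-0.981), Zfp637 (-0.952) and Cyct (-0.949).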

How the data were processed

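The deposited table holds 1 linear intensity for each probe set and array, which the authors computed with MAS5, per the submitters' processing notes (version not given in the sources used here). Leaving out the 2% highest and lowest signals, the arrays averaged 100.053 to 100.057, and that scaling was kept. Detection calls were not used here, and the number of arrays limits the precision.

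Names come from GEO's platform annotation and a table of current mouse genes (GRCm38.p6), and 66 control probe sets were left out of tests. Signals were tested as log2(value + 2), where 2 is the 10th percentile of all values (2.4) rounded, over probe sets with a mean at or above the 40th percentile. The limma model (version 3.58.1, lmFit and eBayes, in R 4.3.3) had 1 mean for each line over the 6 arrays, with 3 residual and 3.17 prior degrees of freedom, and an experiment term was added to compare experiments. Adjusted p-values are Benjamini-Hochberg values over the 7453 probe sets. Background is the highest of the control signals on an array. Figures were drawn with matplotlib 3.10.9.

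The genes and lists were chosen with earlier results of these data known. Besides all probe sets of the 4 genes and H1f2, H1f3 and H1f4, up to 4 genes of each list with the smallest p, list genes past the threshold, and the 3 most alike and 3 most opposite genes are named. Other list genes (Cdkn1c, Ins2, Dnmt1, Trim28, Zfp57, Igf2r, Igf1r, Hes1, Pou5f1, Dppa5a, Sox2, Nanog, Klf4, Tdgf1, Apoe, Tagln, Col1a1, Col1a2 and genes at background) and the sex-linked genes were picked after their values were seen. The brightest probe set stands for a gene of a list.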

Additional observations from a re-analysis of the deposited data

Results flagged for a closer look

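H19 and Dlk1 each had 1 null array far from the other 3. For H19 the array of null line 1 in experiment 2 had 959.3 units, and the other null arrays lay between 810.9 and 829.1, so that the gap took up 0.877 of the range of the 4 arrays. For Dlk1 the array of null line 2 in experiment 1 had 71.2 units, and the other null arrays lay between 76.9 and 77.6, a gap of 0.891 of the range. Dixon's test at the 95% level picks such gaps, and chance alone gives one in about 1 in 20 groups. The 4 arrays hold 2 lines. The null and wild-type arrays of either gene did not overlap with these arrays included, and leaving out a null array cannot create an overlap.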

How the results depend on the processing

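Under the 13 alternatives the log2 changes of Igf2, H19, Meg3 and Dlk1 in the null average kept their direction. They ranged over -1.7 to -1.57, 2.73 to 2.97, 2.67 to 3.53 and -0.35 to -0.15. Since null and wild-type arrays did not overlap, another pseudocount or a left-out array could not reverse the direction. Another filter, a spread that follows the signal or a replicate block left these values unchanged. Nothing is therefore read from the kept direction. A pseudocount of 16 in place of 2 gave 2.67 for Meg3 and 2.73 for H19. Leaving out each replicate in turn gave -0.35 to -0.15 for Dlk1, 3.35 to 3.53 for Meg3, 2.77 to 2.97 for H19 and -1.7 to -1.57 for Igf2. Between the null lines, leaving out each replicate in turn gave -0.3 to 0.06 for Meg3, -0.01 to 0.23 for H19 and -0.04 to 0.25 for the other Meg3 probe set. The sign changed to 0.06 for Meg3 and -0.01 for H19 without null line 1 replicate 2, and to -0.04 for the other Meg3 probe set without null line 2 replicate 2, and no adjusted p of the 4 genes passed in any alternative of either tested comparison.

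Counts of calls over all probe sets moved more. In the null average 31 passed, against 54 with a pseudocount of 16, 8 with no filter, 64 with the filter at the 60th percentile and 101 with a spread that follows the signal, and 7 to 13 with a replicate left out. For null line 1 minus wild type 10 passed, against 5 with no filter, 17 with the higher filter and 42 with the trend, and 4 to 9 with a replicate left out. For null line 2 minus wild type 19 passed, against 31 with a pseudocount of 16, 5 with no filter, 59 with the higher filter and 92 with the trend, and 0 to 10 with a replicate left out. It was 0 without wild-type replicate 1, where 804 had an unadjusted p under 0.05. For null line 1 minus null line 2, 2 passed, against 1 with a pseudocount of 16, with the higher filter or with quantile normalization, and 0 with no filter, with only the 4 null arrays or with any replicate left out, while 339 to 933 had an unadjusted p under 0.05. Between experiments 0 passed, against 3 with a pseudocount of 16, 6 with the higher filter, 6 with the trend and 2 without line means. The number of calls on the list of IGF partners, 1, was 0 with no filter, 2 with the higher filter and 0 with any replicate left out. The list of the region around Igf2 and H19 and the network list, with 0 calls each, had 1 call each with the higher filter and with the trend.

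Arrays of the same experiment number deviated together weakly (r between 0.053 and 0.0948 over probe sets), so the numbers were not taken to pair the samples. With the replicate block, 14 passed in the null average, 0 between the null lines and 0 on the IGF list. The cause of these differences was not tested. Arrays of 2 per line limit all tests.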
